A study of Saccharomyces cerevisiae with 25 samples.

Results

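The proteins of the small ribosomal subunit were followed at the level of mRNA and of ribosome footprints in yeast cells treated with tunicamycin (Tm), an inhibitor of N-glycosylation that sets off the unfolded protein response (UPR). The genes were chosen by name: all 54 RPS genes in the annotation other than RPS7A and RPS7B, which encode eS7, and ASC1, the yeast RACK1. These 55 of the 6696 open reading frames counted in each library encode 32 proteins, 23 of them from a pair of paralogs (A and B) and 9 from a single gene. Ribosome profiling gave 13 libraries and RNA-seq gave 12. All strains were W303-1a, which is MATa and carries the markers ade2, his3, leu2, trp1, ura3 and can1. W303 was sampled 0, 1, 2 and 4 h after addition of 1 µg/mL Tm, with 2 libraries of each assay at 0 h and 1 at each later time. The eS7A-WT strain lacked both chromosomal eS7 genes (RPS7a::HisMX6 RPS7b::natNT2) and carried the plasmid pRS315-RPS7a-3HA as its only source of eS7. The eS7A-4KR strain had the same deletions and carried pRS315-RPS7a-4KR-3HA, in which the 4 lysines of eS7A ubiquitinated by the ligase Not4 were replaced by arginine. Both were sampled at 0 and 4 h with 2 libraries of each assay, except that eS7A-WT at 0 h had 1 RNA-seq library. No culture was left without Tm for 4 h, so the effects of time and of Tm cannot be told apart. The labels do not say whether the W303 libraries came from separate cultures, so the p-values measure the spread between these libraries. In W303 that spread comes from the pairs of libraries at 0 h alone, since each later time had 1 library of each assay.

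The small subunit binds the mRNA and the initiator tRNA and reads the codons, and its proteins line the mRNA channel, the decoding centre and the outer surface. Names with uS mark proteins that have a bacterial counterpart and names with eS those that have none. In yeast, ribosomal protein genes are transcribed as one large regulon under Rap1, Fhl1, Ifh1 and Sfp1, their mRNAs are among the most abundant in growing cells, and the regulon is shut down in many stresses. Several small subunit proteins are ubiquitinated when ribosomes stall or cells are stressed. They include uS3 (RPS3), uS10 (RPS20) and eS7, and ASC1 encodes a propeller protein at the head of the subunit that takes part in recognising collided ribosomes.

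Total counts ranged from 3423907 to 33858553 in ribosome profiling and from 28309641 to 49246452 in RNA-seq, and no gene of the 55 had fewer than 67 footprints or 321 RNA-seq reads in any library. The strain labels were checked with the eS7 genes. RPS7B was at 17.9 to 26.8% of RPS7A reads in the W303 RNA-seq libraries and at 0.248 to 0.435% in those of both eS7A strains. In footprints it was at 33.9 to 50.5% in W303 and still at 6.78 to 12.6% in the eS7A strains, where RPS7B is deleted, so some footprints were counted on a copy that the cells lacked. All 8 UPR targets on a fixed list (KAR2, PDI1 and others) rose in every comparison of treated with untreated cells. Levels below are CPM, read counts relative to the library after trimmed mean (TMM) scaling within each assay. Changes are log2 ratios ± SE from edgeR's quasi-likelihood test, called at a Benjamini-Hochberg adjusted p below 0.01 over all genes tested. TE, the translation efficiency, is the footprint level divided by the mRNA level, and a change in TE is the footprint change minus the mRNA change. All values are relative to the library, and in bulk cultures fewer cells and less RNA per cell cannot be told apart.

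The 55 genes took a large part of both kinds of library before Tm. In W303 at 0 h they held 7.57 and 7.92% of the RNA-seq reads. After Tm it was 6.38% (1 h), 1.70% (2 h) and 0.571% (4 h). It was 8.71% in eS7A-WT at 0 h and 1.05 and 1.03% at 4 h. In eS7A-4KR the RNA-seq share started lower, at 4.09 and 4.29%, and was 2.71 and 2.66% at 4 h. The footprint share was 9.33 and 9.80% in W303 at 0 h and 0.713% at 4 h. In eS7A-WT it was 8.76 and 9.27% at 0 h and 1.16 and 1.19% at 4 h, and in eS7A-4KR 8.17 and 8.79% at 0 h and at least 4.80% at 4 h. Before Tm the footprint shares of both eS7A strains thus lay close together while the RNA-seq shares differed.

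**Figure D1:**
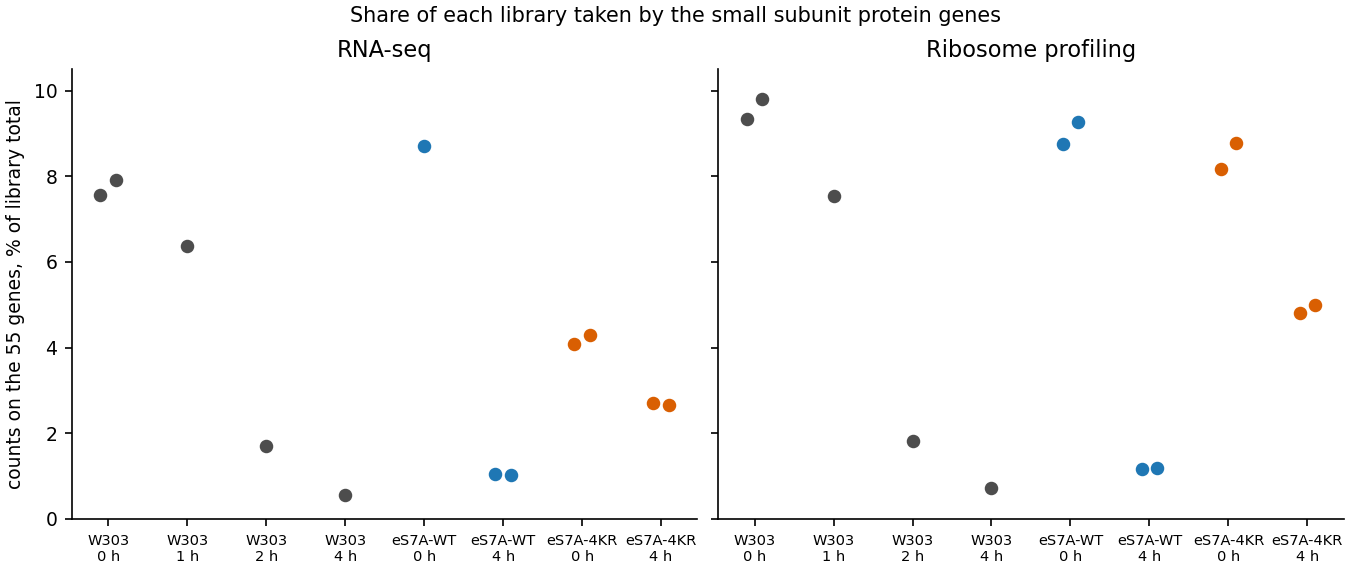
Share of each library, in percent of its total counts, taken by the 55 small subunit protein genes, with RNA-seq on the left and ribosome profiling on the right. Each point is 1 library, grouped by strain and hour of Tm. In W303 and eS7A-WT the share was between 0.571 and 1.19% at 4 h, and in eS7A-4KR it was at least 2.66%.

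In W303, the small subunit protein genes fell together and progressively. At 1 h the mRNA of 16 of the 55 genes fell, at 2 h and 4 h that of all 55, and none rose at any time. The median log2 change in mRNA went from -0.37 at 1 h to -2.65 at 2 h (6.26-fold lower) and to -4.41 at 4 h (21.2-fold lower), which left 4.71% of the level before Tm. Footprints followed with medians of -0.51, -2.96 and -4.71, and fell for 32, 55 and 55 genes. Of all 5392 genes tested, 18.5% fell and 18.3% rose in mRNA at 1 h, 33.8% fell and 35.8% rose at 2 h, and 36.0% fell and 37.6% rose at 4 h. In footprints 16.5% fell and 11.7% rose at 1 h, 30.7% and 29.8% at 2 h, and 32.6% fell at 4 h. The median over all genes lay within 0.04 of 0 on the log2 scale at each time, and at 4 h all 55 genes were among the lowest 5% of genes by mRNA change. The spread over the 55 genes was narrow beside the fall itself, from -5.41 to -3.14 in mRNA at 4 h.

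RPS22A (uS8, YJL190C, chromosome X 74910-75302), whose protein binds the rRNA of the small subunit early in assembly, showed one of the largest falls. Its mRNA level was 1211 and 1495 CPM at 0 h in W303, 1181 CPM at 1 h, 157 CPM at 2 h and 33.2 CPM at 4 h. The 1 h value of RPS22A lay just below both untreated libraries and the later ones far below. The change at 4 h was -5.35 ± 0.145 in mRNA (adjusted p = 4.5e-13, 40.8-fold lower) and -5.56 ± 0.161 in footprints (adjusted p = 6.1e-13), with 2419 and 2573 CPM of footprints at 0 h and 52.8 CPM at 4 h. RPS9B (uS4, YBR189W, chromosome II 604508-605508), which encodes a protein at the mRNA entry, had the largest fall in mRNA of the 55. It went from 2435 and 2519 CPM to 1788, 244 and 58.1 CPM, a change of -5.41 ± 0.129 at 4 h (42.6-fold lower, adjusted p = 1.4e-13). At 2 h the largest mRNA falls were those of RPS9B (-3.34 ± 0.127), RPS29A and RPS28B (both -3.27). In footprints they were those of RPS29A (-3.72 ± 0.14), RPS26B (eS26, at the mRNA exit; -3.63 ± 0.16) and RPS22A (-3.54 ± 0.145). At 4 h RPS16B (uS9) fell by 5.23 on the log2 scale, with a SE of 0.129 and an adjusted p of 1.7e-13. The smallest fall at 4 h was that of RPS30A (eS30, made as a fusion with a ubiquitin-like protein in animals but not in yeast), at -3.14 ± 0.118 in mRNA.

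The genes of the 2 other ubiquitinated proteins and ASC1 moved with the rest of the subunit. ASC1 (YMR116C, chromosome XIII 499456-500688) had 3314 and 3741 CPM of mRNA in W303 at 0 h, 2711 CPM at 1 h, 616 CPM at 2 h and 111 CPM at 4 h. The fall at 4 h was -4.996 ± 0.136 in mRNA (31.9-fold lower, adjusted p = 4.5e-13) and -5.49 ± 0.143 in footprints, one of the 3 largest in footprints. RPS3 (uS3, YNL178W, chromosome XIV 302680-303402), at the mRNA entry, had 3255 and 3587 CPM at 0 h and 2731, 486 and 142 CPM after Tm. Its change at 4 h was -4.59 ± 0.133 in mRNA (adjusted p = 5.5e-13) and -4.83 ± 0.138 in footprints. RPS20 (uS10, YHL015W, chromosome VIII 75412-75777), on the head, had 1109 and 1700 CPM at 0 h, 1210 CPM at 1 h, 211 CPM at 2 h and 53.6 CPM at 4 h. Its untreated libraries were farther apart than those of ASC1 or RPS3, and the 1 h library lay between them. The mRNA change of RPS20 was -4.71 ± 0.19 at 4 h and -0.21 ± 0.186 at 1 h (adjusted p = 0.36).

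The largest falls at 1 h were in other genes. RPS28B (eS28, YLR264W, chromosome XII 673131-673334) encodes a protein that in yeast binds its own mRNA and promotes its decay. It had 202 and 188 CPM of mRNA in W303 at 0 h and 97.8 CPM at 1 h. This was the largest fall of the 55 at that time, -0.995 ± 0.108 in mRNA (adjusted p = 2.7e-06) and -1.09 ± 0.113 in footprints (adjusted p = 2.4e-06). RPS22B (uS8) fell by 0.80 in mRNA and by 1.01 in footprints on the log2 scale at 1 h. RPS23A (uS12, at the decoding centre) fell by 0.74 in mRNA (adjusted p = 0.00023), and RPS29A (uS14, on the head) by 0.85 in footprints. The counts at 1 h depended on single libraries. Without either untreated footprint library, 8 genes fell in mRNA, and without untreated RNA-seq library 1, 36 did. In footprints the count was 9 without untreated footprint library 1, 6 without untreated footprint library 2 and 52 without either untreated RNA-seq library. Without the filter on low counts the counts at 1 h were 5 in mRNA and 6 in footprints.

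**Figure D2:**
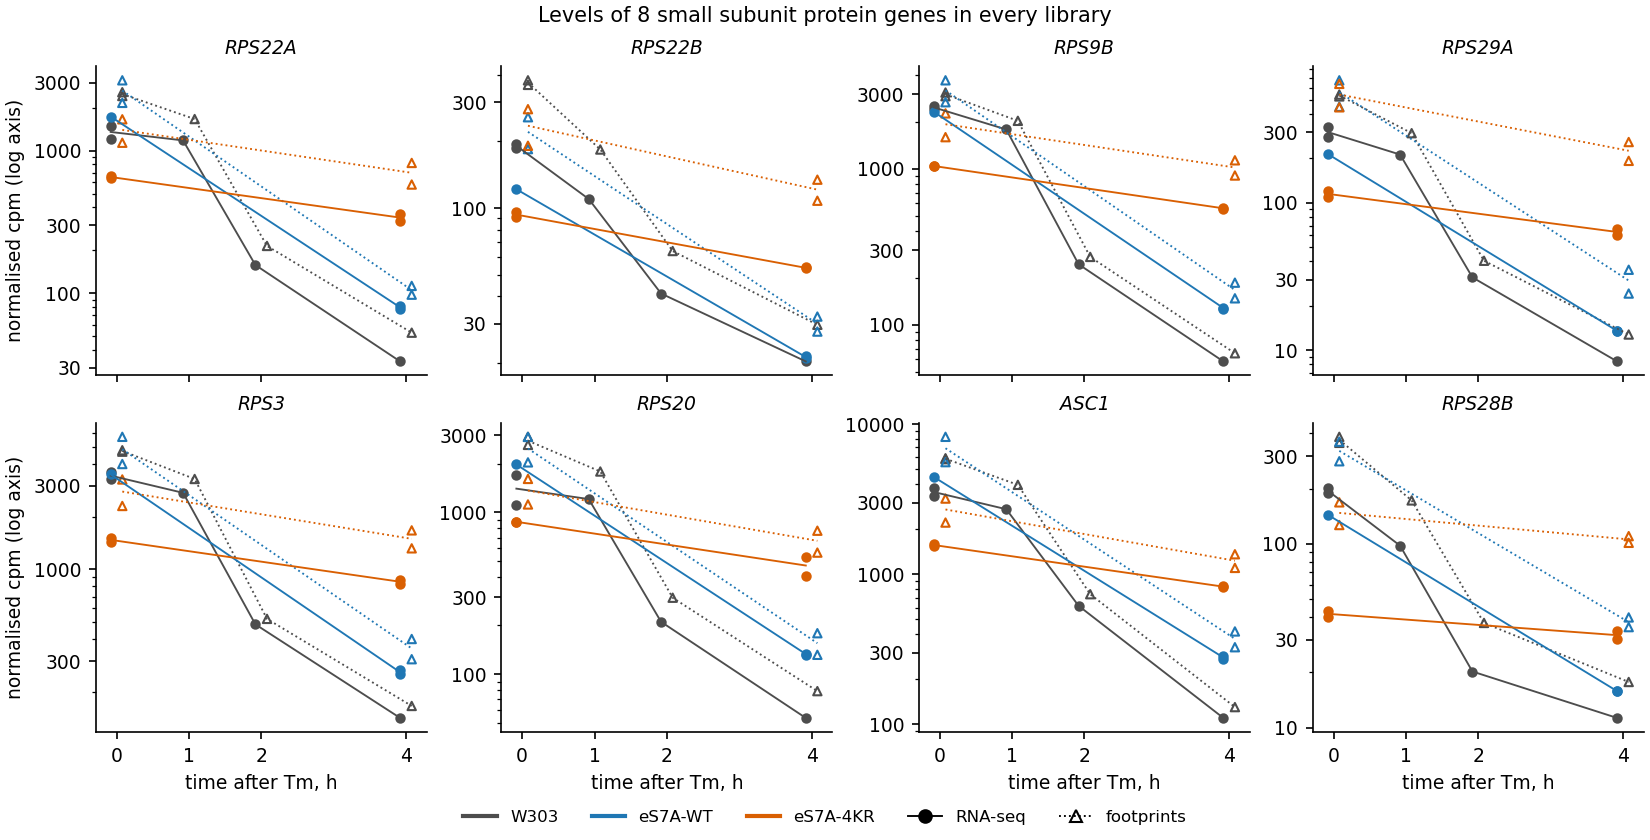
Levels of RPS22A, RPS22B, RPS9B, RPS29A, RPS3, RPS20, ASC1 and RPS28B in every library by strain and hour of Tm, in TMM-scaled CPM on a log axis, for mRNA and footprints. Each point is 1 library. RPS22A mRNA went from 1211 and 1495 CPM in W303 at 0 h to 33.2 CPM at 4 h, and in eS7A-4KR from 640 and 666 CPM to 319 and 359 CPM.

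In eS7A-WT, in which the only eS7 is the tagged plasmid copy, the same genes fell at 4 h. All 55 fell in mRNA (median -3.67, 12.8-fold lower) and all 55 in footprints (median -3.75, 13.5-fold lower), where 29.1% of all 5558 genes fell and 30.6% rose in mRNA and 34.9% fell and 34.6% rose in footprints. RPS22A mRNA went from 1734 CPM in the single untreated library to 81.0 and 77.9 CPM at 4 h. Its change was -4.45 ± 0.28 in mRNA (21.8-fold lower, adjusted p = 6.8e-13) and -4.65 ± 0.231 in footprints (adjusted p = 3.8e-14), where 2166 and 3119 CPM at 0 h became 97.6 and 112 CPM. RPS9B fell by 4.18 and RPS16B by 4.16 in mRNA, and RPS29A by 4.26 in footprints, all on the log2 scale. ASC1 went from 4442 CPM of mRNA to 273 and 285 CPM (-3.99 ± 0.309, adjusted p = 2.1e-11). RPS3 went from 3477 CPM to 265 and 253 CPM and RPS20 from 1981 CPM to 134 and 132 CPM. The smallest mRNA fall was that of RPS22B, from 122 CPM to 21.1 and 21.4 CPM (-2.52 ± 0.196). Across the 55 genes the mRNA change at 4 h in eS7A-WT followed that in W303, with a Pearson correlation of 0.94 and a Spearman correlation of 0.93. These comparisons share no library, but the genes share their regulation and are not independent replicates. All 55 falls were larger in W303, which is a description, since the strains were fitted apart and this difference was not tested.

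In eS7A-4KR the same genes fell at 4 h by a much smaller amount. The mRNA of 41 of the 55 fell (median -0.82, 1.76-fold lower), and the footprints of 54 fell (median -0.96, 1.94-fold lower). Of all genes, 13.5% fell and 17.3% rose in mRNA, and 19.8% fell and 18.1% rose in footprints. RPS22A mRNA had 640 and 666 CPM at 0 h and 319 and 359 CPM at 4 h, a change of -0.95 ± 0.228 (adjusted p = 0.0018). ASC1 had 1540 and 1591 CPM at 0 h and 837 and 818 CPM at 4 h (-0.92 ± 0.252, adjusted p = 0.0051). The 3 largest mRNA falls were those of RPS6A (eS6, the classical phosphoprotein of the subunit; -0.96 ± 0.246, adjusted p = 0.003) and of RPS18A and RPS18B (uS13, on the head; -0.96 and -0.95). In footprints they were RPS29A (-1.27 ± 0.198, adjusted p = 1.6e-05), ASC1 (-1.13 ± 0.252) and RPS11B (uS17, in the body; -1.11 ± 0.228). RPS3 had 1432 and 1512 CPM of mRNA at 0 h and 828 and 871 CPM at 4 h, without overlap, but did not pass the test in mRNA (-0.79 ± 0.247, adjusted p = 0.012) and passed it in footprints (-0.90 ± 0.247, adjusted p = 0.0044). RPS20 mRNA fell by 0.90 on the log2 scale.

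The one gene of eS7A-4KR whose footprints did not pass the test was RPS14B (uS11, YJL191W, chromosome X 73787-74611), whose protein in yeast represses the splicing of its own RPS14B transcript. RPS14B had 384 and 392 CPM of mRNA at 0 h and 335 and 285 CPM at 4 h, a change of -0.33 ± 0.195 (adjusted p = 0.18). Its footprint change was -0.62 ± 0.195 (adjusted p = 0.011). In W303 the same mRNA went from 327 and 390 CPM to 29.4 CPM. In every combination of single untreated and treated eS7A-4KR libraries, all 55 mRNAs were lower at 4 h, a count for which the share of all genes is not given. The number that passed the test moved with the libraries. The mRNA count was 5 and 4 without eS7A-4KR 0 h RNA-seq library 1 or 2, 3 without either 4 h RNA-seq library of that strain, and 27 without either 4 h RNA-seq library of eS7A-WT. The footprint count was 13 without eS7A-4KR 0 h footprint library 2 and 14 without 4 h footprint library 1.

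**Figure D3:**
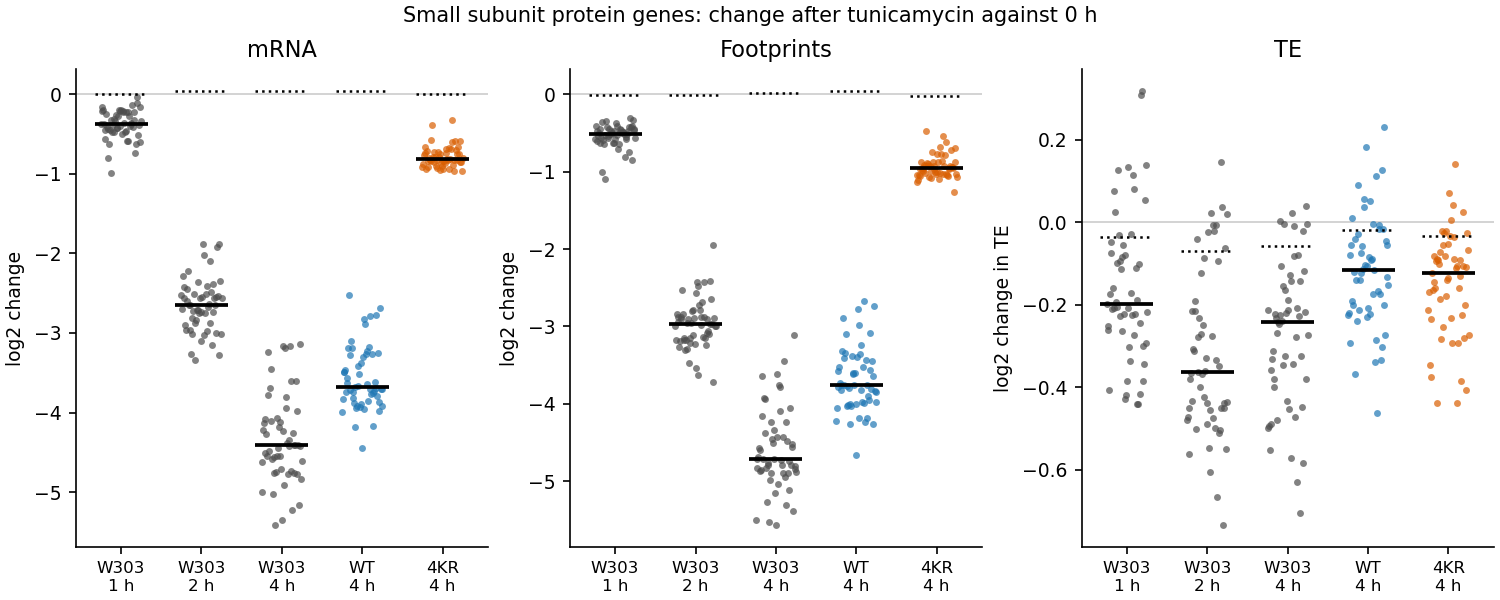
Log2 changes after Tm in mRNA, footprints and TE of the 55 small subunit protein genes, by strain and hour. Each point is 1 gene, the solid bar is the median of the 55 and the dotted bar the median of all genes tested. The mRNA median at 4 h was -4.41 in W303, -3.67 in eS7A-WT and -0.82 in eS7A-4KR.

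How far the response differed between these strains was asked by subtracting the eS7A-WT response from that of eS7A-4KR. The difference of responses was positive and passed the test for all 55 genes in mRNA (median 2.87, 7.31-fold) and for all 55 in footprints (median 2.79, 6.90-fold). Of all genes, 19.3% passed as positive and 15.5% as negative in mRNA, and 22.9% and 21.0% in footprints. RPS22A had the largest difference, 3.50 ± 0.361 in mRNA (adjusted p = 1.8e-08) and 3.65 ± 0.325 in footprints (adjusted p = 1.4e-09). RPS9B followed with 3.28 in mRNA and 3.33 in footprints, then RPS16B with 3.28 in mRNA and RPS12 (eS12, on the head) with 3.20 in footprints. ASC1 differed by 3.07 ± 0.399 in mRNA, RPS3 by 2.95 ± 0.39 and RPS20 by 3.00 ± 0.377. The lowest of the 55 was RPS22B, at 1.72 ± 0.253 in mRNA (adjusted p = 3.4e-06).

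The strains already differed before Tm. At 0 h eS7A-4KR had less mRNA than eS7A-WT for 45 of the 55 genes and more for none (median -1.04, 2.05-fold lower), where 21.3% of all genes were lower and 21.0% higher. This comparison rests on the single untreated eS7A-WT RNA-seq library. RPS28B had 144 CPM in that library and 40.1 and 43.2 CPM in eS7A-4KR, the largest difference (-1.79 ± 0.165, 3.46-fold lower, adjusted p = 3.4e-09). ASC1 was at 4442 CPM against 1540 and 1591 CPM (-1.50 ± 0.309, adjusted p = 0.00019) and RPS22A at 1734 CPM against 640 and 666 CPM (-1.41 ± 0.279, adjusted p = 0.00013). RPS3 and RPS20 were lower by -1.24 ± 0.302 and -1.18 ± 0.292. RPS14B (492 CPM against 384 and 392 CPM) did not pass the test, with an adjusted p of 0.23. The mRNA count was 11 without eS7A-4KR 0 h RNA-seq library 1 and 17 without library 2.

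Footprints at 0 h differed less between the strains. They were lower in eS7A-4KR for 20 of the 55 genes (median -0.59, 1.51-fold lower), and higher for none, where 26.5% of all genes were lower and 26.4% higher. ASC1 differed most, with 5579 and 8224 CPM in eS7A-WT and 2209 and 3192 CPM in eS7A-4KR (-1.35 ± 0.252, adjusted p = 6.6e-05). RPS2 (uS5, at the mRNA entry) was lower by -1.13 ± 0.244 and RPS28B by -1.12 ± 0.134. In both strains the TMM-scaled CPM of the 55 genes were higher in footprint library 2 than in library 1. The median factor was 1.41 in eS7A-WT at 0 h and 1.42 in eS7A-4KR at 0 h, with 55 of 55 genes above 1 in each. The median factor over all genes was 1.01 and 1.02. As shares of total counts libraries 1 and 2 lay closer, at 8.76 and 9.27% in eS7A-WT and at 8.17 and 8.79% in eS7A-4KR. The size of the factor thus depended on the scaling. In a model that paired libraries of the same number (a replicate block), 47 of the 55 genes were lower. The shares of all genes given above are from the model without the block. The count was 4 without eS7A-4KR 0 h footprint library 1, 5 without eS7A-WT 0 h footprint library 2, 33 without eS7A-4KR library 2 and 36 without eS7A-WT library 1. With scaling to total counts the median of the 55 genes was -0.01 and that of all genes 0.53, with 9 of the 55 higher and 13 lower, so the sign of single genes in footprints at 0 h depended on the scaling.

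At 4 h the order of the strains was reversed. All 55 genes had more mRNA in eS7A-4KR than in eS7A-WT (median 1.81, 3.50-fold higher) and all 55 more footprints (median 2.16, 4.46-fold higher), where 27.1% of all genes were higher and 22.6% lower in mRNA and 28.7% higher and 25.7% lower in footprints. RPS14B had 51.2 and 51.4 CPM of mRNA in eS7A-WT and 335 and 285 CPM in eS7A-4KR, the largest difference (2.59 ± 0.196, 6.03-fold, adjusted p = 1.7e-10). RPS29A (YLR388W, chromosome XII 898651-898821) had the largest difference in footprints, with 24.2 and 35.1 CPM against 192 and 258 CPM (2.94 ± 0.21, 7.66-fold, adjusted p = 3.9e-11). RPS11A was higher by 2.19 ± 0.226 in mRNA and RPS22A by 2.74 ± 0.231 in footprints. ASC1, RPS3 and RPS20 were higher by 1.57 ± 0.253, 1.71 ± 0.247 and 1.82 ± 0.239 in mRNA. For all 55 genes the eS7A-4KR libraries at 4 h lay above the eS7A-WT libraries in both assays. The share of all genes with such a separation is not given, so this count has no background beside it.

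**Figure D4:**
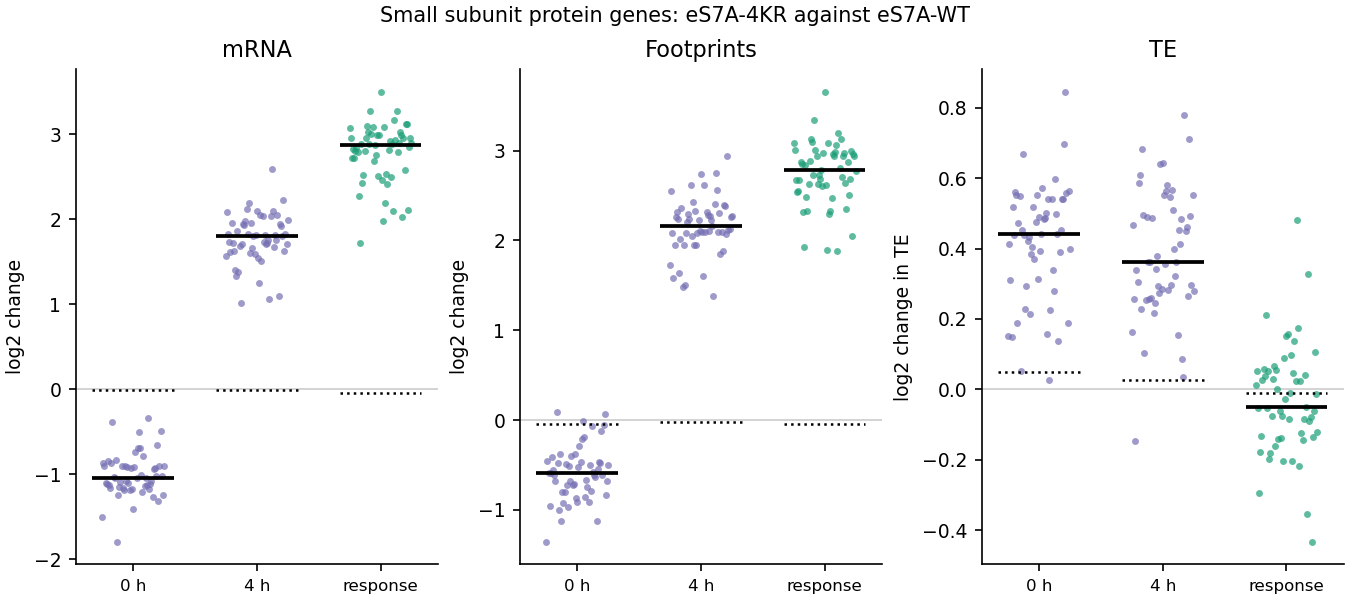
Log2 difference between eS7A-4KR and eS7A-WT in mRNA, footprints and TE of the 55 small subunit protein genes at 0 h, at 4 h and in the response to Tm (eS7A-4KR response minus eS7A-WT response). Each point is 1 gene, the solid bar is the median of the 55 and the dotted bar that of all genes tested. The mRNA median was -1.04 at 0 h and 1.81 at 4 h.

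The TE of none of the 55 genes passed the test in any of the 8 comparisons with edgeR as fitted here or with DESeq2. In W303 the median TE change after 1, 2 and 4 h was -0.20, -0.36 and -0.24, and 5, 21 and 11 of the 55 genes had an unadjusted p below 0.05. Among all 5392 genes tested, 533, 1117 and 1320 had such a p. Of all genes, 0.0556% passed as lower and 0.0371% as higher TE at 1 h, 0.723% and 1.59% at 2 h, and 1.37% and 2.58% at 4 h. The lowest value at 4 h was that of RPS2, -0.71 ± 0.208 (adjusted p = 0.044). At 2 h RPS14B was at -0.67 ± 0.186 (adjusted p = 0.048). Without untreated RNA-seq library 2, 7 genes passed at 2 h and 5 at 4 h. In eS7A-WT and eS7A-4KR at 4 h the medians were -0.11 and -0.12, which ranged from -0.36 to 0.15 and from -0.32 to 0.14 as single libraries were left out, so their sign was not fixed. As fitted, none of the 55 genes had an unadjusted p below 0.05, where 1127 and 633 of all 5558 did. Of all genes, 2.36% passed as lower and 2.05% as higher in eS7A-WT, and 0.522% and 0.378% in eS7A-4KR. With the replicate block 1 gene passed in each.

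Between the strains the TE of the 55 genes lay mostly on one side. At 0 h the TE change from eS7A-WT to eS7A-4KR was positive for 55 of the 55 genes (median 0.44, range 0.03 to 0.85), where the median of all genes was 0.05 and 1.1% of all genes passed as higher and 1.31% as lower. It was highest beside its error for RPS28B, 1 copy of a pair whose division of footprints is uncertain, at 0.67 ± 0.213 (adjusted p = 0.053). At 4 h it was positive for 54 (median 0.36), with 1.96% of all genes passing as higher and 2.66% as lower. RPS22B, also 1 copy of a pair, was at 0.68 ± 0.237 (adjusted p = 0.067). An unadjusted p below 0.05 was seen for 2 of the 55 genes at 0 h and 7 at 4 h, and for 1264 and 1399 of all 5558 genes. In the model with the replicate block, 31 of the 55 genes passed as higher at 0 h and 29 at 4 h. The shares of all genes given above are from the model without the block and cannot be set beside these counts. With scaling to total counts 54 and 50 passed, and the median of all genes was then 0.62 and 0.38. The share of all genes that passed under that scaling is not given either. Over the combinations of single libraries the median of the 55 genes ran from -0.08 to 0.97 at 0 h, so its sign was not fixed, and from 0.04 to 0.77 at 4 h. All 0 h values rest on the single untreated eS7A-WT RNA-seq library. Of the 55 genes, 16 were higher in all 8 combinations at 0 h and 24 in all 16 at 4 h. No share of all genes is given for these combinations. The difference of TE responses had a median of -0.05 (-0.32 to 0.23 as single libraries were left out), with 0.306% of all genes passing as positive and 0.324% as negative. None of the 55 genes had an unadjusted p below 0.05 there, where 550 of all 5558 did. The footprint length windows chosen by the authors differed between the groups of the eS7A strains, and their part in the TE values was not tested.

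As a level, TE was above that of most genes. The median log2 TE of the 55 genes, from footprints and mRNA per codon, was 0.45 in W303 at 0 h, and 49 of the 55 were above the median gene. It was 0.23, 0.11 and 0.21 at 1, 2 and 4 h. It went from 0.43 to 0.37 in eS7A-WT and from 0.85 to 0.76 in eS7A-4KR. RPS31, which makes eS31 as a fusion with ubiquitin, had the lowest TE level of the 55 in all 8 groups, -0.91 in W303 at 0 h. RPS17B (eS17) had the highest in 7 groups, 1.22 in W303 at 0 h, and RPS29B (uS14) in W303 at 2 h. RPS17B and RPS29B are each 1 copy of a pair whose division of footprints is uncertain, so their TE levels are uncertain too. In W303 at 0 h RPS17A was at 0.53, and it held 69.9% of its pair in RNA-seq and 59.0% in footprints.

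The copies of a paralog pair did not fall by the same amount. In W303 at 4 h the log2 mRNA changes of A and B differed by a median of 0.53 over the 23 pairs, and by more than 0.5 in 13. The pair that differed most was RPS22A and RPS22B, by -2.12. RPS22B (YLR367W, chromosome XII 856442-857317), which unlike RPS22A contains an intron, had 195 and 187 CPM of mRNA at 0 h and 20.3 CPM at 4 h, where RPS22A went from 1211 and 1495 CPM to 33.2 CPM. RPS22A therefore went from 86.1 and 88.9% of the RNA-seq reads per codon of the pair to 62.0%. In eS7A-WT it went from 93.4% to 78.4 and 79.3%. In eS7A-4KR it was 87.4 and 87.6% at 0 h and 85.7 and 86.9% at 4 h. The footprint share of RPS22A moved with it, from 87.1% (mean) to 64.0% in W303, from 92.3 to 77.8% in eS7A-WT and from 85.6 to 85.1% in eS7A-4KR.

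Other pairs moved toward the A copy or toward the B copy. RPS10A (eS10, at the head, YOR293W, chromosome XV 867098-867852) went from 59.3% of its pair in RNA-seq to 34.9% in W303 and from 63.4 to 45.7% in eS7A-WT, and its copy RPS10B (YMR230W, chromosome XIII 732414-733141) fell less. In CPM, W303 mRNA went from 849 and 1053 to 38.7 for RPS10A and from 647 and 649 to 72.3 for RPS10B. RPS29A went from 54.9 to 34.4% and from 50.9 to 38.6%. The A copy gained in RPS16A/RPS16B, from 39.4 to 59.0% in W303 and from 43.9 to 56.0% in eS7A-WT. It also gained in RPS9A/RPS9B, from 15.2 to 27.2% and from 11.1 to 19.9%, and in RPS27A/RPS27B (eS27), from 20.5 to 33.3% and from 18.9 to 28.4%. The A copies of RPS4 and RPS6 were between 49.5 and 52.1% at 0 and 4 h in all 3 strains. Their copies are near-identical, so the division of their reads is uncertain. The division of footprints is uncertain for the other pairs too, since footprints were counted on the deleted RPS7B, and in W303 at 0 h the footprint share lay nearer 50% than the RNA-seq share in 18 of the 23 pairs.

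In eS7A-4KR the shares of most pairs moved less. The RNA-seq share of the A copy moved by a median of 1.93 percentage points between 0 and 4 h, against 5.12 in eS7A-WT and 8.16 in W303. In footprints the medians were 1.22, 3.92 and 6.45 points. No pair of eS7A-4KR differed by more than 0.5 in log2 mRNA change, and the largest difference was 0.34, in RPS14A/RPS14B. The share of RPS14A moved more in eS7A-4KR than in eS7A-WT, from 70.7 to 65.7% against 80.3 to 77.6% in RNA-seq and from 68.1 to 61.4% against 79.8 to 78.0% in footprints. In RNA-seq the untreated and treated shares were apart in 18 of the 23 pairs of eS7A-4KR. In W303 and eS7A-WT they were apart in all 23, but with 1 library at 4 h or at 0 h, which makes this easier to reach. In footprints they were apart in 16 pairs of eS7A-4KR, 17 of eS7A-WT and 23 of W303, the last with 1 library at 4 h. No such count is given for other paralog pairs, so these counts have no background beside them. Between the strains at 0 h the copies differed most in RPS28A/RPS28B, by 1.10 in log2 mRNA change, and at 4 h in RPS10A/RPS10B, by 1.03. These shares are descriptions, since groups of 2 libraries cannot reach a p of 0.05 by permutation.

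**Figure D5:**
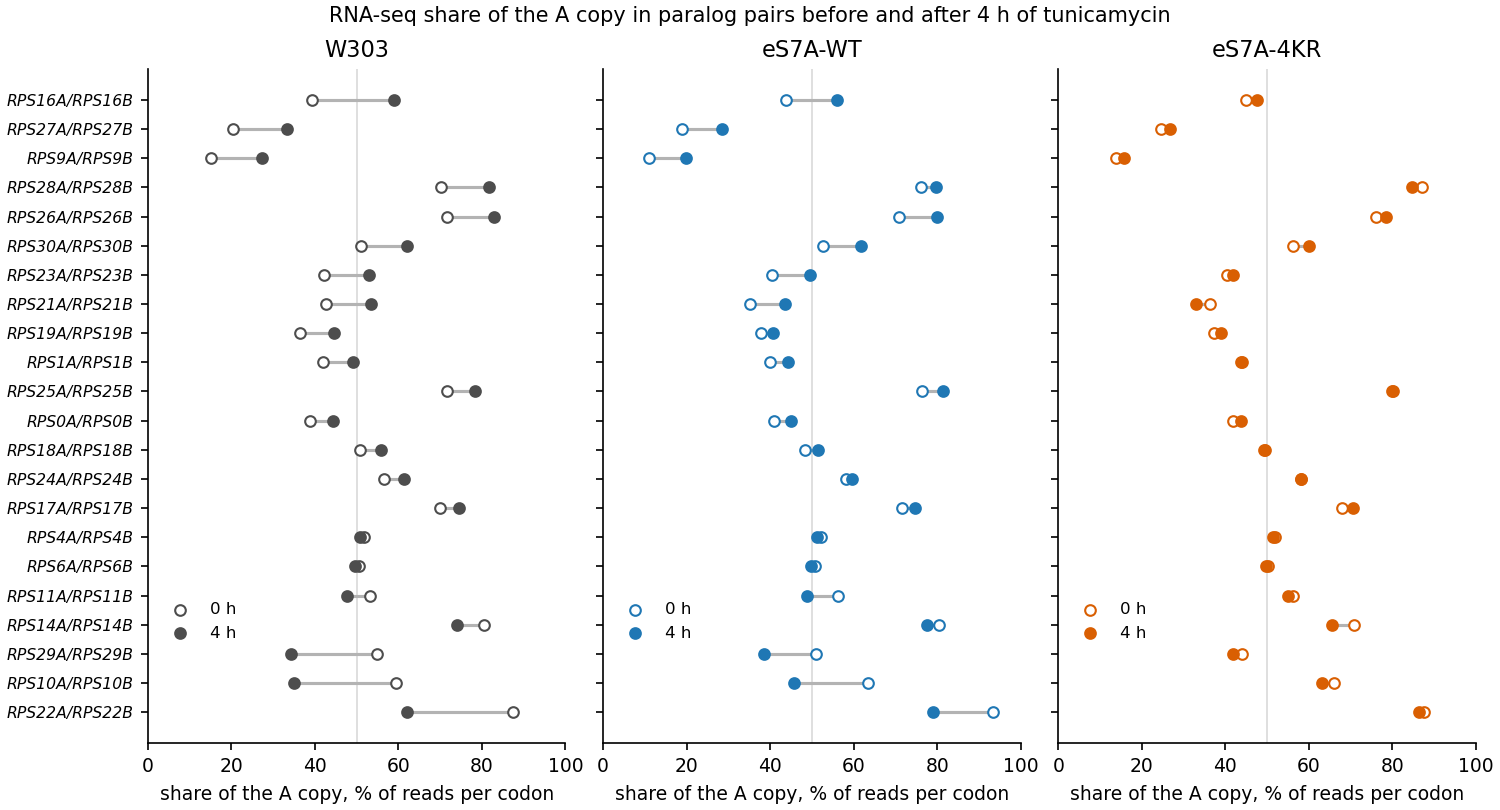
Share of the A copy in the RNA-seq reads per codon of the paralog pairs, except 1 that is not shown, in percent, before Tm (open) and after 4 h (filled), in W303, eS7A-WT and eS7A-4KR. Points are means of the libraries and grey lines join the times. RPS22A went from 87.5 to 62.0% in W303 and from 87.5 to 86.3% in eS7A-4KR.

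With the reads of each pair added, so that their division did not matter, the 32 proteins gave the same picture. All 32 fell in mRNA and footprints in W303 at 2 and 4 h and in eS7A-WT at 4 h. In eS7A-4KR 18 fell in mRNA and 30 in footprints, and the difference of responses was positive and passed for all 32 in both. At 0 h 25 proteins were lower in eS7A-4KR in mRNA and 10 in footprints. In W303 at 4 h the mRNA change ranged from -5.20 for uS4 to -3.30 for eS25. Footprints per codon, summed over the copies, had a coefficient of variation over the proteins of 24.2% in W303 at 0 h, where eS28 had the lowest level. At 4 h it was 44.3%, and eS30 was 6.82-fold above RACK1. In eS7A-WT it was 29.6% at 0 h and 36.2% at 4 h, and in eS7A-4KR 36.5 and 36.3%. For mRNA per codon it was 42.0% in W303 at 0 h and 47.3% at 4 h.

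The falls were shared across the subunit. In W303 at 4 h the median mRNA change was -4.51 for the 23 genes of head proteins, -4.41 for the 20 of the body and -4.27 for the 12 of the platform. In eS7A-WT these medians were -3.74, -3.66 and -3.56, and in eS7A-4KR -0.82, -0.82 and -0.78. Genes of proteins with a bacterial counterpart and of the others both had a median of -4.41 in W303. The 9 single genes had a median of -4.71 and the 46 paired genes -4.36. The 35 genes longer than their reading frame, which contain an intron, had a median of -4.38 and the other 20 had -4.55. None of these divisions was tested.

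The large subunit, the assembly factors and the regulators of the regulon were set beside these genes. The 82 large subunit protein genes had median mRNA changes of -4.44 in W303 at 4 h, -3.61 in eS7A-WT and -0.76 in eS7A-4KR, and 82, 82 and 45 of them fell. Of the 14 genes on a list of small subunit maturation factors and chaperones, 12 fell in mRNA in W303 at 4 h (median -1.51) and 13 in eS7A-WT (median -1.54). ENP1, which assembles with the precursor of the subunit, was at -2.41 ± 0.105 and TSR2, the chaperone of eS26, at -2.85 ± 0.157 in W303. HRR25, a kinase of late maturation, rose by 0.41 ± 0.0938. In eS7A-4KR 8 of the 14 fell (median -0.43). Of 11 regulators tested, 8 fell and 2 rose in W303 at 4 h. STB3, a repressor that binds ribosome biogenesis promoters, rose by 1.56 ± 0.136, and TOD6, another repressor of that regulon, fell by 2.86 on the log2 scale. The mRNA of STB3 also rose in eS7A-4KR, by 0.999 ± 0.103, and TOD6 there was at -0.26 ± 0.124 (adjusted p = 0.095).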

How the data were processed

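The deposited values were counts of reads per open reading frame, which the authors made from 13 ribosome profiling and 12 RNA-seq libraries, beside another column, the number of codons counted. Per the labels, CASAVA 1.8, Bowtie2 2.0.6, TopHat2 2.0.7 and sacCer3 were used. The authors mapped reads to the transcriptome, removed duplicates by random barcodes, assigned footprints to the A-site and kept length windows that differed between the eS7A groups. How reads shared by paralogs were placed is not given in the sources used here. The untreated eS7A-WT RNA-seq library is labelled as replicate 2, and no other was used here.

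Genes averaging 10 counts or more over the libraries of both assays, each taken alone, were fitted with edgeR 4.0.16 in R 4.3.3 (TMM scaling within each assay, quasi-likelihood test, Benjamini-Hochberg adjustment over all genes kept, threshold 0.01). W303 (10 libraries, 5392 genes, 2 residual degrees of freedom) and the eS7A strains (15 libraries, 5558 genes, 7 residual degrees of freedom) were fitted apart, with 1 term for each strain, time and assay. Treated W303 samples had 1 library, which is assumed to vary like the others. Alternatives were scaling to total counts, TMM without ribosomal protein genes, DESeq2 1.42.0, no filter, the newer quasi-likelihood method, all 25 libraries in one fit, a replicate block and each of 18 libraries left out. Summaries used Python 3.11.15 and pandas 2.3.3. The scripts were tested on simulated data. Coordinates and names are from the RefSeq annotation of the R64 assembly of strain S288C, not from W303.

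All 55 genes were counted, and the values of 1 pair of copies are not reported here one by one. In each comparison and measure, those named are the 3 largest rises and falls past the threshold, ASC1, RPS3 and RPS20 always, and the 5 paralog pairs that differed most in W303 and in eS7A-WT. RPS14B in eS7A-4KR, RPS22B, RPS30A, RPS31 and RPS17B as extremes, and the other pairs, were named after their values were seen. The genes, lists and tests were chosen with earlier results of these data known. Same-numbered footprint libraries of the eS7A strains deviated together (correlations of 0.399 to 0.584 over 6 pairs of groups), which RNA-seq libraries did not (-0.299 to 0.019), and the numbers have no stated meaning, so the model without a block is the main one. No pair of replicates agreed within sampling noise.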

Additional observations from a re-analysis of the deposited data

Results flagged for a closer look

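The response to Tm differed between eS7A-4KR and eS7A-WT, by a test of the difference itself, for 55 of the 55 small subunit protein genes in mRNA and for 55 in footprints. The median difference was 2.87 in mRNA and 2.79 in footprints on the log2 scale, toward a smaller fall in eS7A-4KR. The strains differed already at 0 h, by a median of -1.04 in mRNA, and the mRNA difference rests on 1 untreated eS7A-WT library.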

How the results depend on the processing

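Of 24 counts of genes called, 8 comparisons by 3 measures, those in W303 at 2 and 4 h, in eS7A-WT at 4 h, between the strains at 4 h and in the difference of responses were 55 in mRNA and in footprints under every alternative run. No called gene turned its direction under any of them. With scaling to total counts, however, the footprints of some genes that had not passed at 0 h between the strains passed as higher. RPS14B and RPS29A (0.52 and 0.53) were among them. Over genes, measures and alternatives 193 calls were lost and 171 gained. With scaling to total counts the W303 1 h footprint count was 19 (32 with TMM), and 54 and 50 genes passed as higher TE in eS7A-4KR at 0 and 4 h (0 with TMM). That scaling moved the median of all genes by up to 0.97 on the log2 scale, and the share of all calls that were rises in W303 at 4 h from 51.1 to 77.4% in mRNA and from 49.5 to 79.4% in footprints, and it moved that share to 74.6 and 76.4% in eS7A-WT after Tm, and for footprints at 0 h between the strains from 49.9 to 85.1%. The block moved it for TE at 4 h between the strains from 42.4 to 53.4%. Without the filter on low counts the W303 1 h counts were 5 in mRNA and 6 in footprints, and with all 25 libraries in one fit 2 and 4. Under the replicate block, counts were 47 for footprints at 0 h between the strains, 31 and 29 for TE at 0 and 4 h, and 1 for TE in each eS7A strain after Tm. The block changed no other count by over 1.5 times. Leaving out 1 library at a time gave 8 to 36 genes in mRNA and 6 to 52 in footprints in W303 at 1 h, 0 to 7 in TE at 2 h and 0 to 5 at 4 h. In eS7A-4KR at 4 h it gave 3 to 52 in mRNA and 13 to 55 in footprints. Between the strains it gave 11 to 50 in mRNA, 4 to 36 in footprints and 0 to 1 in TE at 0 h, and 0 to 1 in TE at 4 h. The causes were not tested. The single eS7A-WT 0 h RNA-seq library and the single treated W303 libraries could not be left out. The planned counts of a promoter motif and of paralog identity, and the share of each coding sequence unique to 1 copy, were not run. The depth limits single genes little, since the lowest count was 67.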
